A study of Mus musculus with 36 samples.

Results

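The core of the mTOR pathway was described through 8 genes, Mtor, Rptor, Rictor, Tsc1, Tsc2, Rheb, Pik3cb and Rps6kb1, which were taken by name from the 16614 genes of the deposited count table. All 8 were found and all 8 passed the filter on low counts in each comparison. RPFs (ribosome-protected fragments, the stretches of mRNA that a ribosome shields from nuclease) had been sequenced from the pellet of a sucrose gradient, where RNA granules with stalled ribosomes collect, and from fraction 5/6, where polysomes collect, and RNA-seq had been made from whole brain homogenate. Each preparation pooled the brains of 10 C57BL/6 mice at postnatal day 5, either WT or FMR1 KO, and the 36 libraries form 12 groups of 3. A standard preparation (10 mM MgCl2, a high amount of nuclease, room temperature) and a low-nuclease preparation (2.5 mM MgCl2, in the cold) each have pellet, fraction 5/6 and RNA-seq libraries of both genotypes. Occupancy is the difference of pellet RPFs from RNA-seq, enrichment is the difference of pellet RPFs from those of fraction 5/6, and abundance is the level of pellet RPFs. Levels are given in CPM, counts scaled to the same total in every library, with Cdk8 left out of that total.

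mTOR is a kinase that ties protein synthesis and cell growth to nutrients, energy and growth factors. It works in a pair of complexes, mTORC1 with its scaffold Raptor (Rptor) and mTORC2 with its defining subunit Rictor. PI3-kinase, whose p110β catalytic subunit comes from Pik3cb, acts upstream, while hamartin (Tsc1) and tuberin (Tsc2) hold the GTPase Rheb inactive, active Rheb switches on mTORC1, and the ribosomal S6 kinase made from Rps6kb1 is a direct mTORC1 substrate. In neurons the pathway is known for its part in synaptic plasticity, and loss of TSC1 or TSC2 causes tuberous sclerosis. FMRP, the product of Fmr1, is an RNA-binding protein that associates with ribosomes and with neuronal RNA granules.

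Fmr1 stood at 60.6 to 71.9 CPM in WT and 16.4 to 18.1 CPM in FMR1 KO RNA-seq of the standard preparation, and at 64.6 to 67.8 CPM in the WT and 4.79 to 4.93 CPM in the FMR1 KO pellet. The library labelled WT fraction 5/6 standard replicate 3 held 3.17 CPM of Fmr1, against 100.1 and 68.6 CPM in the other WT libraries of that fraction. Among the other standard libraries, over 14072 genes, its log2 CPM correlated best with FMR1 KO pellet replicate 3 (r = 0.9627). FMR1 KO pellet replicate 1 (0.9564) and WT pellet replicate 2 (0.9555) came close, so these values do not separate the genotypes. They are a description across genes, which are not replicates. Cdk8 took up 36.7% to 63.4% of the counts of the standard RPF libraries, and without it these libraries held 4284209 to 21274803 counts, against 112240104 to 147207607 in standard RNA-seq. The low-nuclease RPF libraries held 22378936 to 60377525 counts without Cdk8. In 3 low-nuclease RNA-seq libraries (WT replicate 2, FMR1 KO replicates 2 and 3), the top 10 genes held 82.4% to 85.0% of the counts. All 5 neuronal markers (Map2, Tubb3, Snap25, Syt1, Rbfox3) were detected in each standard RNA-seq library, and the liver gene Apoa1 averaged 0.71 CPM. Summed markers of red blood cells (Hba-a1, Hbb-bs) were at 3.20 to 8.67 CPM in the WT standard pellet and at 178 to 419 CPM in WT RNA-seq. Those of endothelium (Cldn5, Pecam1) were at 0.654 to 1.09 and 4.62 to 5.52 CPM, and the oligodendrocyte lineage genes Olig1, Olig2, Pdgfra and Mbp at 102.1 to 144 and 509 to 782 CPM. Summed markers of microglia were at 103 to 109 and 156 to 176 CPM, of astrocytes at 414 to 534 and 419 to 630 CPM, and of neurons at 5361 to 6414 and 4377 to 5172 CPM. The part of these in the occupancies below was not tested. In such bulk samples fewer cells of a type and less RNA per cell cannot be told apart.

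The 8 genes lie on 7 chromosomes of GRCm38, and their coding sequences differ widely in length. Mtor (ENSMUSG00000028991) lies at chr4:148448611-148557683 on the plus strand and encodes 2549 codons. Rptor (ENSMUSG00000025583) lies at chr11:119602905-119899576 on the plus strand with 1335 codons, and Rictor (ENSMUSG00000050310) at chr15:6708379-6800401 on the plus strand with 1708 codons. The inhibitor pair comprises Tsc1 (ENSMUSG00000026812) at chr2:28641228-28691167 on the plus strand with 1160 codons and Tsc2 (ENSMUSG00000002496) at chr17:24595816-24632630 on the minus strand with 1741 codons. Rheb (ENSMUSG00000028945), by far the shortest with 184 codons, lies at chr5:24802823-24842624 on the minus strand. Pik3cb (ENSMUSG00000032462) at chr9:99036654-99140621 on the minus strand has 1064 codons, and Rps6kb1 (ENSMUSG00000020516) at chr11:86498871-86544805 on the minus strand has 525. The exons of Tsc2 share 693 bases with Pkd1 on the opposite strand, those of Rps6kb1 share 155 with Rnft1 and those of Rptor share 84 with the antisense gene Rptoros. The sources used here do not say whether counting used the strand, so reads there may be split uncertainly.

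The coding stretches below are shown because RPF peaks of all 6 standard pellet libraries met there. Each is written 5′ to 3′ along the mRNA from the GRCm38 genome, and the capitals mark the bases that lay inside a peak interval in every pellet library. Interval starts were read as 0-based, which leaves an uncertainty of 1 base.
Rictor, exon 30 of 38, chr15:6784021-6784063, plus strand: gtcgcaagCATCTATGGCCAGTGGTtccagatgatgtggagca
Mtor, exon 7 of 58, chr4:148458641-148458727, plus strand: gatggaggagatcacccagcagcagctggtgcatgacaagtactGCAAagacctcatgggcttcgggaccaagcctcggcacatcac
Mtor, exon 30 of 58, chr4:148514878-148514939, plus strand: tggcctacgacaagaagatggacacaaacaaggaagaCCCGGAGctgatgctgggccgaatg
Rheb, exons 3 and 4 of 8 joined across the intron, chr5:24808416-24813834, minus strand: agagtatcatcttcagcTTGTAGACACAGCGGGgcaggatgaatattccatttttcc
Rheb, exon 8 of 8 up to the last coding base, chr5:24803667-24803721, minus strand: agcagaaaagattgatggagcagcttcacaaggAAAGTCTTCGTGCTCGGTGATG
The Rictor capitals fall in codons 999 to 1004, those of Mtor in codons 300 to 301 and 1473 to 1475, and those of Rheb in codons 58 to 63 and 177 to 184.

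Rheb was the member with the highest level per kilobase in every standard group, and Mtor and Tsc2 came next in the pellet. In the WT pellet Rheb stood at 115 ± 17.5 CPM per kilobase of coding sequence (SD, n = 3), Tsc2 at 31.4 ± 0.27, Mtor at 28.2 ± 1.59 and Rptor at 21.3 ± 0.51. Rictor followed with 13.7 ± 0.83, Tsc1 with 12.5 ± 0.55, Rps6kb1 with 10.0 ± 1.79 and Pik3cb with 8.04 ± 0.74. In WT RNA-seq, scaled per kilobase of transcript, Rheb (59.1 ± 0.64) and Tsc2 (31.7 ± 4.25) again led and Pik3cb (6.08 ± 0.45) was again lowest. Mtor ranked 3 of 8 in pellet and RNA-seq of both genotypes and 7 of 8 in FMR1 KO fraction 5/6, with 5.55 ± 1.37 CPM per kilobase of coding sequence. In WT fraction 5/6 it ranked 3 with all libraries (13.5 ± 15.7) and 7 without the library labelled replicate 3 (4.42, n = 2).

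Mtor itself stood at 213, 206 and 229 CPM in the 3 WT and at 239.6, 125 and 248 CPM in the 3 FMR1 KO pellet libraries of the standard preparation. In fraction 5/6 it stood at 37.5, 30.1 and 241 CPM in WT and at 30.4, 47.4 and 49.5 CPM in FMR1 KO. In RNA-seq its values were 114, 156 and 157 CPM in WT and 153, 122 and 149 CPM in FMR1 KO. Every pellet library was therefore above every fraction 5/6 library except the library labelled WT replicate 3, which lay within the pellet range. Rictor had the same arrangement, with 70.8, 65.4 and 73.8 CPM in the WT pellet and 86.1, 47.0 and 85.9 CPM in the FMR1 KO pellet. In fraction 5/6 Rictor was at 19.3, 9.99 and 77.9 CPM in WT and at 18.7, 22.3 and 32.7 CPM in FMR1 KO. Its RNA-seq values, 49.2, 55.5 and 68.2 CPM in WT and 63.1, 59.0 and 67.9 CPM in FMR1 KO, overlapped those of the pellet. Rptor differed less between library types, with 83.7, 87.7 and 85.1 CPM in the WT and 81.6, 58.3 and 91.6 CPM in the FMR1 KO pellet. In fraction 5/6 it was at 35.1, 27.1 and 85.4 CPM in WT and at 22.5, 34.03 and 41.5 CPM in FMR1 KO, again with replicate 3 of WT apart. In RNA-seq Rptor was at 80.9, 99.1 and 106 CPM in WT and at 94.7, 84.9 and 92.4 CPM in FMR1 KO, which overlapped the pellet.

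Of the inhibitor pair, Tsc2 had the higher level per kilobase, and Tsc1 was the one whose pellet CPM lay below its RNA-seq CPM. Tsc1 stood at 45.5, 41.7 and 42.9 CPM in the WT and 51.2, 29.2 and 52.5 CPM in the FMR1 KO pellet, against 76.8, 92.1 and 85.4 CPM in WT and 86.4, 74.9 and 81.2 CPM in FMR1 KO RNA-seq. In fraction 5/6 Tsc1 was at 25.3, 17.03 and 48.4 CPM in WT and at 20.3, 23.7 and 38.0 CPM in FMR1 KO. The RNA-seq values thus lay above all RPF values of Tsc1. Tsc2 stood at 163, 165 and 164 CPM in the WT and 156, 94.6 and 175 CPM in the FMR1 KO pellet. In fraction 5/6 Tsc2 was at 57.3, 46.0 and 164 CPM in WT and at 46.2, 65.0 and 103 CPM in FMR1 KO. Its RNA-seq values of 148, 176 and 193 CPM in WT and 197, 153 and 199 CPM in FMR1 KO overlapped the pellet values, and the pellet and fraction 5/6 ranges of FMR1 KO overlapped as well.

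Rheb, Pik3cb and Rps6kb1 had no such drop in fraction 5/6. Rheb was at 64.2, 72.9 and 53.6 CPM in the WT and 74.2, 62.7 and 53.7 CPM in the FMR1 KO pellet, and at 106, 59.3 and 62.1 CPM in WT and 101, 86.3 and 140.3 CPM in FMR1 KO fraction 5/6. In RNA-seq Rheb hardly varied, from 104 to 107 CPM over the 6 libraries. In CPM all FMR1 KO fraction 5/6 libraries were above all FMR1 KO pellet libraries for Rheb, while the WT ranges overlapped. Pik3cb was at 24.5, 28.4 and 24.1 CPM in the WT and 25.3, 18.6 and 26.0 CPM in the FMR1 KO pellet, and at 22.02, 16.6 and 27.0 CPM in WT and 19.5, 22.6 and 30.1 CPM in FMR1 KO fraction 5/6, and these 4 ranges overlapped. Its RNA-seq range of 36.4 to 42.1 CPM lay above all of them. Rps6kb1 was at 18.4, 16.2 and 12.8 CPM in the WT and 20.9, 14.1 and 17.5 CPM in the FMR1 KO pellet, at 21.1, 13.1 and 18.1 CPM in WT and 24.1, 19.8 and 33.6 CPM in FMR1 KO fraction 5/6, and at 45.1 to 54.2 CPM in RNA-seq. All RPF values of Rps6kb1 lay below RNA-seq, as with Pik3cb, and FMR1 KO fraction 5/6 lay above the WT pellet, while the pellet and fraction 5/6 ranges of each genotype overlapped. In the order of group means, neighbouring groups of Mtor, Rptor, Rictor, Tsc2 and Rheb all overlapped in range, while for Tsc1, Pik3cb and Rps6kb1 the step from RNA-seq to the highest RPF group did not. For Mtor, Rptor and Rictor the overlap of fraction 5/6 with the other groups rested on the library labelled WT replicate 3. The other 5 libraries of that fraction reached at most 49.5, 41.5 and 32.7 CPM, below the lowest pellet or RNA-seq values of 114, 58.3 and 47.0 CPM.

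**Figure D1:**
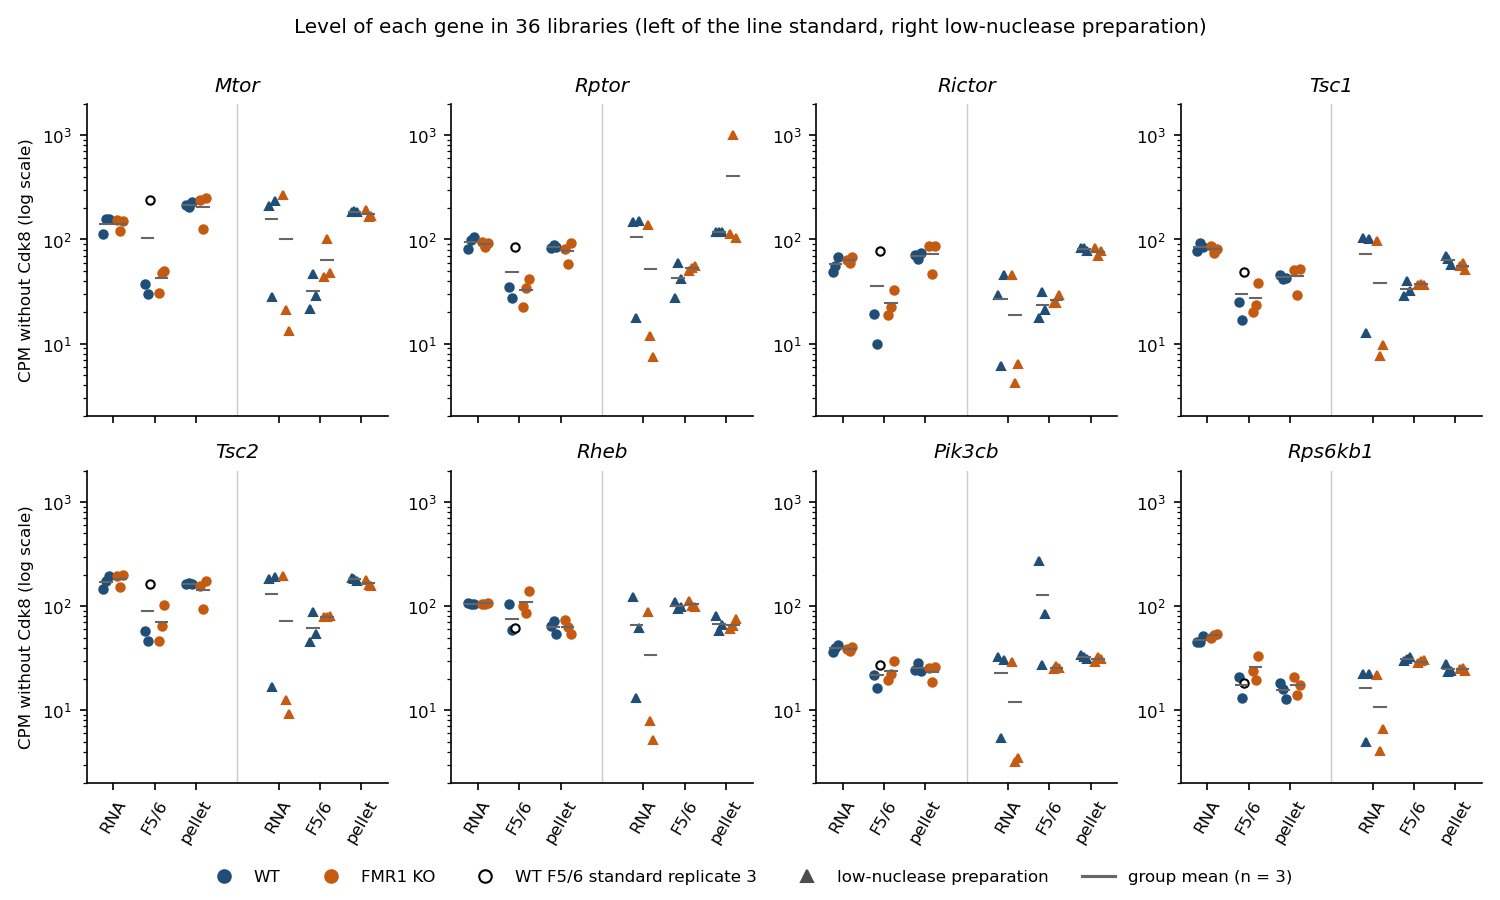
Level of each of the 8 genes in the 36 libraries, in CPM without Cdk8 on a log scale, by library type, with WT in blue, FMR1 KO in orange, circles for the standard and triangles for the low-nuclease preparation, and bars for group means (n = 3). The open circle, the library labelled WT fraction 5/6 standard replicate 3, lies at 241 CPM for Mtor, among the pellet libraries, while the other WT libraries of that fraction lie at 37.5 and 30.1 CPM.

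Occupancy asked how many RPFs of the pellet there were per mRNA. In WT, 6 of the 8 genes were higher in the pellet and 1, Rps6kb1, was lower (edgeR's quasi-likelihood test, Benjamini-Hochberg adjusted p under 0.05), where 31.1% of all 16200 genes tested were higher and 34.2% were lower. In FMR1 KO 5 were higher and Rps6kb1 was lower, against 31.8% and 35.2% of all genes. With genes split into 10 classes by coding length, Mtor, Rictor, Rptor, Tsc1 and Tsc2 fell in the longest. Of that class 50.46% were called higher in WT and 52.35% in FMR1 KO. These directions follow TMM scaling, and with library sizes alone the fitted differences of Rptor, Tsc1, Tsc2, Rheb and Pik3cb turned negative in both genotypes, since the median gene moved from −0.10 to −1.26 (log2) in WT and from −0.07 to −1.16 in FMR1 KO. Under library sizes alone the calls of Rictor were lost in WT (0.28, adjusted p = 0.128) and FMR1 KO (0.21, adjusted p = 0.479), and so was that of Mtor in FMR1 KO (0.53, adjusted p = 0.129). Relative to the median gene, 7 of 8 members were above it in both genotypes under TMM, under library sizes alone and under DESeq2, with Rps6kb1 below it each time. The CPM above rest on library sizes alone, so a gene with equal CPM in pellet and RNA-seq has a fitted difference above 0. The ranges above are of these CPM, and overlaps of pellet and fraction 5/6 also depend on the scaling. With TMM-scaled CPM those of Rheb in FMR1 KO overlapped. Those of Tsc2 and Pik3cb in both genotypes, of Rptor in WT and of Tsc1 in FMR1 KO did not. Unless another scaling or DESeq2 is named, the log2 values that follow are fitted differences under TMM.

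Mtor had the highest occupancy of the 8, with a log2 difference of 1.77 ± 0.17 (SE, adjusted p = 8.21e-05) in WT and 1.60 ± 0.16 (adjusted p = 0.000125) in FMR1 KO, a 3.41-fold and a 3.03-fold difference. Of its partners, Rictor followed with 1.45 ± 0.16 in WT (adjusted p = 0.000145) and 1.28 ± 0.12 in FMR1 KO (adjusted p = 8.82e-05), and Rptor with 1.00 ± 0.13 (adjusted p = 0.000317) and 0.86 ± 0.08 (adjusted p = 0.000104). The kinase and the defining subunits of both its complexes thus exceeded the median gene by 1.87, 1.55 and 1.11 in WT. In FMR1 KO they were 1.67, 1.35 and 0.93 above it.

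The inhibitor pair was split. Tsc2 was 1.09 ± 0.13 higher in WT (adjusted p = 0.000254) and 0.71 ± 0.13 higher in FMR1 KO (adjusted p = 0.00297), whereas Tsc1 had 0.19 ± 0.13 (adjusted p = 0.223) and 0.21 ± 0.11 (adjusted p = 0.126), with 95% intervals of −0.11 to 0.49 and −0.05 to 0.47. Without FMR1 KO pellet replicate 2, whose values were the lowest of the FMR1 KO pellet for 7 of the 8 genes, Tsc1 was called at 0.29 (adjusted p = 0.0256). Pik3cb, upstream of the complexes, was higher by 0.53 ± 0.10 in WT (adjusted p = 0.00225) and 0.37 ± 0.08 in FMR1 KO (adjusted p = 0.00417). Rheb was higher by 0.41 ± 0.11 in WT (adjusted p = 0.0104), a call that was lost without WT pellet replicate 1 (0.35, adjusted p = 0.0822) or replicate 2 (0.34, adjusted p = 0.0713). In FMR1 KO the difference of Rheb was 0.40 ± 0.19 (adjusted p = 0.108), and it was called without pellet replicate 3 (0.53, adjusted p = 0.00512), by DESeq2 (0.45, 0.0306) and with all 6 groups in 1 fit (0.56, 0.0162).

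Rps6kb1, the kinase downstream of mTORC1, was the exception, with −0.42 ± 0.14 in WT (adjusted p = 0.0313) and −0.48 ± 0.11 in FMR1 KO (adjusted p = 0.00763). The WT call was lost without any 1 of 5 libraries, pellet replicate 2 (−0.40, adjusted p = 0.0907), pellet replicate 3 (−0.33, 0.0732) and RNA-seq replicates 1 (−0.43, 0.0582), 2 (−0.43, 0.0676) and 3 (−0.37, 0.095), while without pellet replicate 1 it was −0.61 (adjusted p = 0.011). It was also lost by DESeq2 (−0.36, adjusted p = 0.0607), with the replicate number as a block (−0.43, 0.0522) and with all 6 groups in 1 fit (−0.30, 0.0602). The FMR1 KO call was lost with all 6 groups in 1 fit (−0.31, adjusted p = 0.0539). RNA-seq reads cover whole transcripts and RPFs cover coding sequence, and the coding share of the transcript was 28.5% for Rps6kb1 and 30.9% for Rheb, against 45.8% to 60.7% for Tsc1, Pik3cb, Rictor and Rptor, 89.3% for Mtor and 96.2% for Tsc2. The part of this share in occupancy was not tested.

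Enrichment asked which mRNAs had more RPFs in the pellet than in fraction 5/6. In FMR1 KO 5 of the 8 genes were higher in the pellet, Mtor, Rptor, Rictor, Tsc1 and Tsc2, where 10.1% of the 13333 genes tested were higher. In WT none of the 8 was called with all 3 libraries of fraction 5/6 (edgeR, 0 at an unadjusted p under 0.05, 0 by DESeq2), and 0.0152% of the 13135 genes tested were called higher. Those 5 genes were also higher in WT once the library labelled replicate 3 of fraction 5/6 was left out, against 7.71% of all genes. The occupancy and enrichment of a genotype share their pellet libraries.

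Mtor led again, with a 5.98-fold difference in FMR1 KO (log2 2.58 ± 0.22, adjusted p = 0.00163) and a 6.10-fold difference in WT without replicate 3 (2.61 ± 0.19, adjusted p = 0.00641), while with all 3 libraries the WT value was 1.16 ± 0.76 (adjusted p = 0.64). Rictor was 3.78-fold higher in FMR1 KO (1.92 ± 0.13, adjusted p = 0.000894) and 4.77-fold higher in WT without replicate 3 (2.25 ± 0.18, adjusted p = 0.00704; 1.07 ± 0.65 with it). Rptor was 3.03-fold higher in FMR1 KO (1.60 ± 0.14, adjusted p = 0.00175) and 2.62-fold higher in WT without replicate 3 (1.39 ± 0.13, adjusted p = 0.00784; 0.84 ± 0.37 with it). The subunit of mTORC2 and the scaffold of mTORC1 were thus enriched alongside the kinase.

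Unlike in occupancy, the test called both Tsc1 and Tsc2 in enrichment. Tsc2 was 2.58-fold higher in FMR1 KO (1.37 ± 0.17, adjusted p = 0.00432) and 3.02-fold higher in WT without replicate 3 (1.59 ± 0.15, adjusted p = 0.00784; 0.93 ± 0.43 with it). Tsc1 was 2.08-fold higher in FMR1 KO (1.06 ± 0.12, adjusted p = 0.00374) and 1.99-fold higher in WT without replicate 3 (0.99 ± 0.13, adjusted p = 0.0135; 0.57 ± 0.31 with it). The remaining 3 genes did not pass the test in either genotype. Pik3cb had 0.31 ± 0.10 in FMR1 KO (adjusted p = 0.0883) and 0.35 ± 0.11 in WT without replicate 3 (adjusted p = 0.121). With all 6 groups in 1 fit Pik3cb was called in FMR1 KO (0.29 ± 0.09, adjusted p = 0.0497). Rps6kb1 had −0.19 ± 0.15 (adjusted p = 0.426) and −0.15 ± 0.16 (adjusted p = 0.602), and Rheb had −0.38 ± 0.21 (adjusted p = 0.275) and −0.40 ± 0.12 (adjusted p = 0.101). With all 3 WT libraries these genes had 0.24 ± 0.14, −0.12 ± 0.15 and −0.24 ± 0.19 (adjusted p = 0.64, 0.774 and 0.665). With library sizes alone the calls of Rptor, Tsc1 and Tsc2 in FMR1 KO were lost (1.25 ± 0.34, 0.71 ± 0.35 and 1.00 ± 0.40). The median gene moved from 0.01 to −0.33 there, and the standard errors were over 2 times those under TMM.

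**Figure D2:**
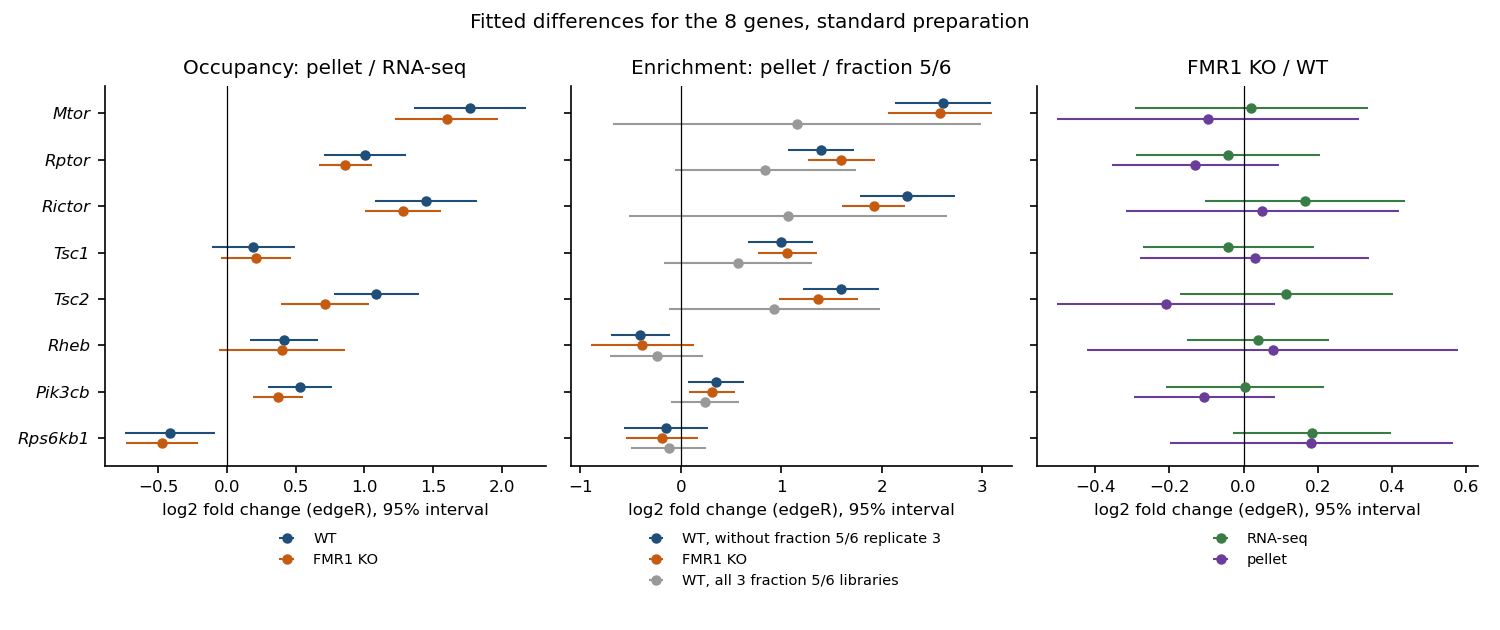
Fitted log2 differences of the 8 genes in the standard preparation with 95% intervals, for occupancy (left), enrichment (middle, with the WT values also without the library labelled WT fraction 5/6 replicate 3) and FMR1 KO over WT (right). Mtor has the highest values in the left and middle panels and Rheb and Rps6kb1 lie at or below 0 in the middle one, all intervals in the right panel include 0, and with library sizes alone in place of TMM the occupancies of Rptor, Tsc1, Tsc2, Rheb and Pik3cb lie below 0.

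Among the 8 genes, enrichment was ordered much as coding length was, a relation that was chosen after the values were seen. Over the 8 genes Spearman's rho with coding length was 0.93 in FMR1 KO and 0.98 in WT without replicate 3, and over all genes with a known length it was 0.57 (13320 genes) and 0.46 (13304 genes), as descriptions across genes of the same libraries. With all 3 WT libraries it was 0.98 over the 8 genes and 0.42 over 13122 genes. With the genes split by coding length into 10 classes of equal size, Mtor, Rictor, Rptor and Tsc2 were in the longest class, whose median log2 difference was 0.93 in FMR1 KO and 0.81 in WT without replicate 3, and of which 51.8% and 40.2% were called higher. With all 3 WT libraries the median of that class was 0.48 and 0% of it were called higher. The values of these 4 genes in FMR1 KO, 1.37 to 2.58, were all above that median, and those of Mtor, Rptor and Rictor were also above the upper quartile of 1.47. In WT without replicate 3 all 4 were again above the median, and Mtor, Rictor and Tsc2, but not Rptor, were above the upper quartile of 1.46. Tsc1 and Pik3cb, in the next class, stood on opposite sides of its median of 0.45 in FMR1 KO, with 1.06 and 0.31. Rheb, in class 2 from the short end, lay below the median of that class, −0.26 in FMR1 KO and −0.23 in WT without replicate 3, and just above its lower quartile of −0.41 and −0.42. Occupancy followed coding length less closely, with a rho over the 8 genes of 0.86 in WT and 0.76 in FMR1 KO. Over all genes it was 0.37 in both, and the difference from enrichment was not tested. In occupancy Tsc1 joined the 4 genes of the longest class, whose median was 0.59 in WT and 0.66 in FMR1 KO. Its upper quartiles were 1.36 and 1.41, exceeded by Mtor in both genotypes and by Rictor in WT. Rptor and Tsc2 in both genotypes and Rictor in FMR1 KO lay between median and upper quartile, and Tsc1 lay below the median.

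**Figure D3:**
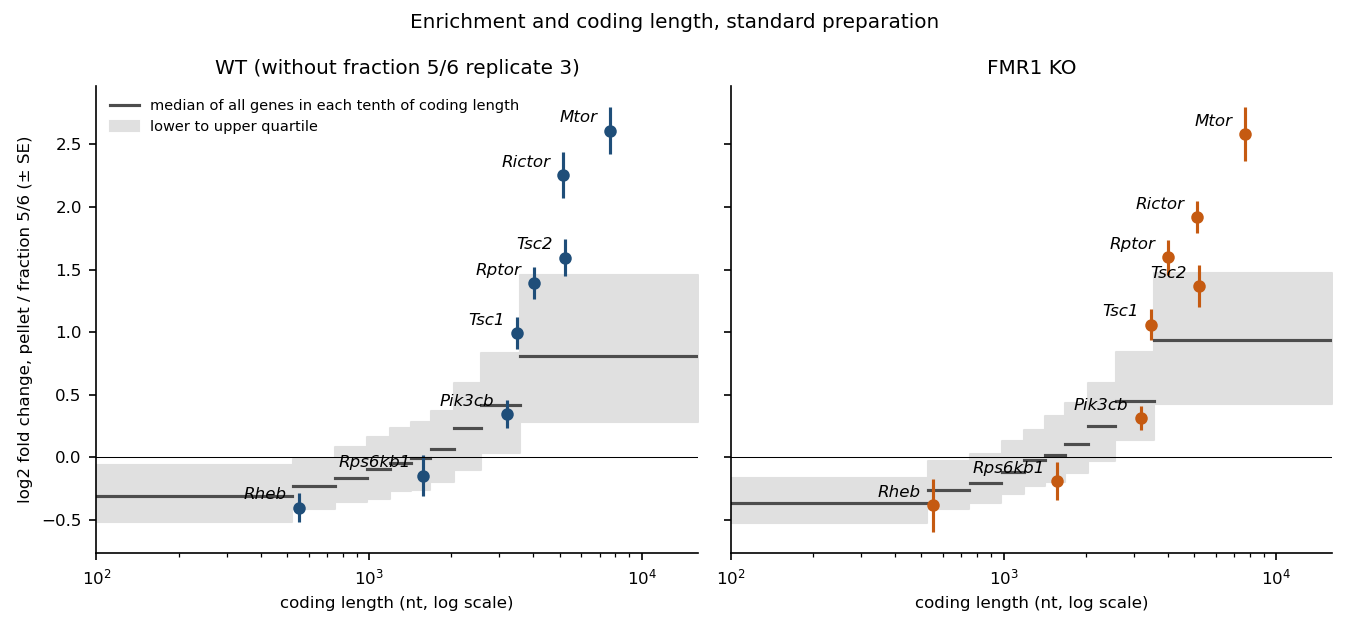
Log2 difference of pellet and fraction 5/6 (± SE) of the 8 genes against coding length in nt on a log scale, for WT without the library labelled fraction 5/6 replicate 3 (left) and FMR1 KO (right), over the median (lines) and quartiles (grey) of all genes in each of 10 classes of coding length. Mtor, Rictor and Rptor lie above the median of the longest class (0.81 and 0.93), and Rheb lies below that of its own class (−0.23 and −0.26), within the grey band.

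The low-nuclease preparation gave a further set of RPF libraries, and the same 5 genes led the enrichment there in WT. Mtor stood at 184, 187 and 183 CPM in the WT pellet and at 21.3, 46.7 and 28.8 CPM in WT fraction 5/6, with no overlap. In this preparation 5 of 8 genes were higher in WT, where 14.3% of all genes were higher, and 5 of 8 in FMR1 KO, where 9.31% were. Mtor, Rictor, Rptor, Tsc1 and Tsc2 were in the longest class here, with medians of 0.70 in WT and 0.68 in FMR1 KO. Of that class 49.33% and 43.92% were called higher. Leaving out 1 library lowered the number of all genes called higher from 2229 to as few as 916 in WT, and from 1451 to 310 in FMR1 KO. The WT differences were 2.64 ± 0.29 for Mtor, 1.91 ± 0.22 for Rictor, 1.65 ± 0.25 for Tsc2, 1.58 ± 0.27 for Rptor and 1.04 ± 0.15 for Tsc1, with adjusted p of 0.0072 to 0.015. With all 6 groups in 1 fit the call of Rptor was lost (1.57 ± 0.62, adjusted p = 0.147). With the replicate number as a block, Rheb was also called in WT, as lower, with −0.47 ± 0.08 (adjusted p = 0.0233, against −0.48 ± 0.14 and 0.0501 without the block). No label says that libraries with the same number share a preparation.

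In FMR1 KO of the low-nuclease preparation Mtor had 1.66 ± 0.32 (adjusted p = 0.0244), Rictor 1.74 ± 0.14, Tsc2 1.25 ± 0.11, Tsc1 0.77 ± 0.09 and Pik3cb 0.46 ± 0.08 (adjusted p = 0.0182). Rptor stood at 114, 1007 and 102.3 CPM in this pellet, so that replicate 2 lay far above the others. With it the difference of Rptor was 3.10 ± 0.96 (adjusted p = 0.0708), and without it 1.26 ± 0.13 (adjusted p = 0.0292). The call of Mtor was lost without any of pellet replicates 1, 2 and 3 (1.498, 1.73 and 1.70, adjusted p = 0.0625, 0.0722 and 0.0521) or fraction 5/6 replicates 1 and 3 (1.48 and 1.49, adjusted p = 0.0715 and 0.0767). That of Pik3cb was lost without pellet replicate 2 (0.46, adjusted p = 0.0633) or any library of fraction 5/6 (0.48, 0.45 and 0.45, adjusted p = 0.0545, 0.0585 and 0.0722), and that of Tsc1 without fraction 5/6 replicate 3 (0.76, adjusted p = 0.0536). With all 6 groups in 1 fit the call of Pik3cb was also lost (0.50 ± 0.50, adjusted p = 0.632), and Rptor was called (3.12 ± 0.66, adjusted p = 0.0122). In WT fraction 5/6 Pik3cb stood at 274, 27.2 and 84.8 CPM, against 34.05, 32.6 and 31.4 CPM in the pellet, so that 2 of the 3 libraries were above the pellet. Its difference there was −1.90 ± 0.79 (adjusted p = 0.123), without fraction 5/6 replicate 2 it was called at −2.39 (adjusted p = 0.0383), and without replicate 1 it was −0.61 (adjusted p = 0.368).

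Occupancy in the low-nuclease preparation rested on the 6 RNA-seq libraries of which 3 are dominated by a few genes. Mtor, for example, stood at 209, 28.1 and 235 CPM in WT and at 266, 20.98 and 13.4 CPM in FMR1 KO of these. In WT 2 of 8 genes were higher, where 26.6% of all genes were, and in FMR1 KO 1 of 8, where 16.1% were. Rictor was called in both, with 1.53 ± 0.20 in WT (adjusted p = 0.000903) and 1.27 ± 0.25 in FMR1 KO (adjusted p = 0.0124). The latter call was lost without pellet replicate 1 (1.11, adjusted p = 0.061) or RNA-seq replicate 2 (1.13, adjusted p = 0.052). Tsc2 was called in WT with 0.63 ± 0.22 (adjusted p = 0.0436), which was lost without each of pellet replicates 1, 2 and 3 (0.66, 0.53 and 0.66, adjusted p = 0.0968, 0.162 and 0.0809) and RNA-seq replicates 1 and 3 (0.71 and 0.73, adjusted p = 0.0515 and 0.0562). Leaving out an RNA-seq library also added calls, in WT for Rps6kb1 (0.65, adjusted p = 0.00728) and Pik3cb (0.54, 0.0138) without replicate 2. In FMR1 KO it did so for Tsc2 (1.36, adjusted p = 0.0102), Rheb (0.77, 0.05) and Pik3cb (0.65, 0.0359) without replicate 1, and for Pik3cb without replicate 3 (0.64, 0.0425), where all libraries gave Tsc2 0.88, Rheb 0.49 and Pik3cb 0.61. With the standard RNA-seq libraries as the reference, Mtor was called at 0.87 in WT and 0.79 in FMR1 KO, and Rps6kb1 was again lower, at −0.43 and −0.60.

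Loss of FMRP was compared for the 8 genes in RNA-seq, abundance, occupancy and enrichment of the standard preparation. None of the 8 was called in any of these (edgeR, 0 of 8 at an unadjusted p under 0.05 and 0 by DESeq2 each time), where 0.0735% of all genes were called in RNA-seq (12 genes), 0.0152% in abundance (2 genes), 0.0669% in occupancy (11 genes) and 0% in enrichment. Over all genes, 423, 703, 1007 and 765 had an unadjusted p under 0.05 and DESeq2 called 24, 96, 63 and 41. Fmr1 itself was called at −1.90 ± 0.10 in RNA-seq and −3.72 ± 0.18 in abundance. Abundance, occupancy and enrichment share their pellet libraries, and occupancy shares its RNA-seq libraries with the RNA-seq comparison.

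In RNA-seq the fitted FMR1 KO over WT differences ran from −0.04 for Rptor to 0.18 for Rps6kb1. For Mtor it was 0.02 ± 0.14, with a 95% interval of −0.29 to 0.33, and for Rheb 0.04 ± 0.08, with an interval of −0.15 to 0.23. For Rps6kb1 the 3 FMR1 KO values of 50.0, 53.2 and 54.2 CPM and the WT values of 45.1, 45.1 and 51.3 CPM overlapped in 1 WT library. With TMM-scaled CPM the genotypes did not overlap for Rps6kb1, as for 8.20% of all genes. In abundance the differences ran from −0.21 ± 0.12 for Tsc2 (interval −0.50 to 0.09) to 0.18 ± 0.16 for Rps6kb1 (interval −0.20 to 0.56). Mtor had −0.10 ± 0.17 with an interval of −0.50 to 0.31, and without FMR1 KO pellet replicate 2 its difference was 0.04. In occupancy Tsc2 had the largest difference, −0.34 ± 0.19 (interval −0.75 to 0.07, adjusted p = 0.848), and the others lay between −0.13 and 0.06. In enrichment Mtor had 1.38 ± 0.83 (interval −0.46 to 3.22) with all libraries and −0.04 ± 0.29 (interval −0.70 to 0.62) without the library labelled WT fraction 5/6 replicate 3, and all 8 lay between −0.16 and 1.38 with it and between −0.35 and 0.20 without it. On the linear scale the interval of FMR1 KO over WT for Mtor ran from 0.817 to 1.26 in RNA-seq and from 0.705 to 1.24 in pellet RPFs.

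Over the 18 standard libraries, the pattern of Mtor was most like that of other genes with long coding sequences. Among 9152 genes with a mean of at least 10 CPM, Pearson's r of log2(CPM + 1) with Mtor was highest for Cul9 (0.996), Gcn1 (0.992), Epg5 (0.991), Trrap (0.991) and Herc1 (0.99), whose coding sequences have 7560 to 14577 nt. Without the library labelled WT fraction 5/6 replicate 3, these 5 genes again had the highest r (0.989 to 0.995, 17 libraries). Of the other members Rictor had 0.96, Rptor 0.93, Tsc2 0.91, Tsc1 0.68, Pik3cb 0.44, Rps6kb1 0.05 and Rheb −0.39, and without that library they had 0.96, 0.93, 0.91, 0.70, 0.47, 0.09 and −0.35. The libraries share groups and depth, and these values describe the pattern only.

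The rest of the pathway was described through 80 further genes in 6 lists drawn up by role in the pathway. In WT occupancy 31 of the 80 were higher and 22 lower, where 31.1% and 34.2% of all genes were, with a median of 0.17 against −0.10 for all genes. In FMR1 KO 29 were higher and 27 lower, where 31.8% and 35.2% of all genes were, with a median of −0.04 against −0.07. The FMR1 KO counts are near the shares over all genes, and the genes named here are examples by size of change in their list. Among subunits and assembly factors of the mTOR complexes, 3 of 9 were higher and 3 lower in WT. Telo2 and Tti1, which help to assemble mTOR and related kinases, had 1.64 ± 0.13 and 1.46 ± 0.14, and Akt1s1, an inhibitor within mTORC1, had −1.31 ± 0.15. Of the 28 genes of the Rag, Ragulator and amino acid sensing list 14 were higher and 8 lower, with Lamtor5 at −2.72 ± 0.33 and Rragd at −2.52 ± 0.11. In the PI3K and Akt list of 18 genes 5 were higher and 6 lower in WT, with the kinases Akt1 at −1.69 ± 0.10 and Akt2 at −2.05 ± 0.14. Of the 8 AMPK and Lkb1 genes 3 were higher and 1, Stk11 (−2.18 ± 0.17), was lower, and neither of the 2 partners of TSC and Rheb was called. Among 15 targets and effectors 6 were higher and 4 lower, with the cap-binding protein Eif4e at −2.24 ± 0.27, Rps6, the ribosomal protein that S6 kinase phosphorylates, at −2.08 ± 0.25, and the translation inhibitor Pdcd4 at 2.03 ± 0.13. These directions are under TMM and are not relative to the median gene of −0.10.

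In enrichment 10 of 78 tested genes of these lists were higher in FMR1 KO and 1 was lower, near the 10.1% and 1.39% of all genes, with a median of 0.06 against 0.01 for all genes and 1.21 for the 8 core genes. Among those that were higher were the growth factor receptor gene Igf1r (1.61 ± 0.21), Telo2 (1.17 ± 0.21), Fnip1 (0.98 ± 0.14), Irs2 (0.97 ± 0.16), Phlpp1 (0.93 ± 0.15), Wdr59 (0.84 ± 0.16) and Larp1 (0.76 ± 0.17). In WT 0 of 79 were called with all libraries (edgeR), a count that depends on the library labelled WT fraction 5/6 replicate 3. Leaving it out gave 11 of 80 higher and 2 lower, where 7.71% and 1.76% of all genes were, with a median of 0.07 against −0.01. In the low-nuclease preparation 12 of 80 were higher and 8 lower in WT, where 14.3% and 8.58% of all genes were, and 9 were higher and 10 lower in FMR1 KO, where 9.31% and 10.7% of all genes were, with Telo2 at 1.47 ± 0.31 and 1.24 ± 0.13. None of the 80 was called between the genotypes in RNA-seq, abundance, occupancy or enrichment (edgeR).

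Peaks asked where along the mRNAs RPFs piled up. A peak is an interval of a transcript in the deposited lists, each with a listed height that is not scaled between libraries. All listed intervals were counted, including 3 of Mtor, 7 of Rictor and 2 of Rptor with a listed height of 0 to 2, and 1 of those of Mtor, in FMR1 KO fraction 5/6 replicate 2, had a listed height of 0. Over the 12 standard RPF libraries Rictor had 126 peaks, Mtor 122, Rheb 77, Rptor 8, Tsc2 4 and Rps6kb1 1, and for Tsc1 and Pik3cb 0 were listed. The interval middles of all of these lay within coding sequence except those of 2 of Rheb, while 9 intervals of Rheb and 1 of Rictor ran past an end of it. In the pellet Mtor had 3, 31 and 13 peaks in WT and 9, 38 and 11 in FMR1 KO, and in fraction 5/6 it had 2, 0 and 11 in WT and 0, 4 and 0 in FMR1 KO. For Mtor, WT pellet replicate 1, with 4528 counts, had 3 peaks and replicate 2, with 2515, had 31. Rictor had 33, 10 and 14 pellet peaks in WT and 31, 7 and 20 in FMR1 KO, and in fraction 5/6 it had peaks only in the library labelled WT replicate 3, with 11. Unlike for Mtor, the pellet library with the most Rictor counts in each genotype (1506 and 1328) was also the one with the most peaks. Rheb was the only member with peaks in all 12 libraries, between 4 and 10 in each.

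With zeniths (taken as interval middles) matched within 6 nt, 1 site of the 8 genes was found in all 6 pellet libraries, the site of Rictor in codons 999 to 1004, whose sequence is given above. Over all transcripts with a peak in any pellet library, 6.16% had such a site (361 of 5861). Its listed heights were 17, 14 and 12 in WT and 15, 16 and 16 in FMR1 KO, near the median listed height of 14 to 15 in these libraries. In none of the 6 libraries of fraction 5/6 did a peak middle fall within 6 nt of it, and in the library labelled WT replicate 3 an interval overlapped its shared bases at the edge. Within 3 nt or among peaks at or above the median height there was no site in the 8 genes.

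By bases inside a peak interval in all 6 pellet libraries, a rule that was added after the data were seen, 3 of the 8 genes had a site, Mtor and Rheb with 2 each and Rictor with 1, while 5 of the 8 had a peak in any pellet library. Of all transcripts with a peak in any pellet library 22.6% had such a site. The site of Mtor in codons 1473 to 1475 had listed heights of 59, 26 and 35 in WT and 51, 22 and 38 in FMR1 KO. That in codons 300 to 301 had 56, 29 and 27 in WT and 45, 14 and 28 in FMR1 KO. In fraction 5/6 the former was covered by a peak only in the library labelled WT replicate 3 (height 31), and the latter in that library (height 27) and in WT replicate 1 (height 12). The site of Rheb in codons 58 to 63, which spans no exon border within its capitals, was met by a peak in 5 of 6 libraries of fraction 5/6, with heights of 13 to 52, against 19 to 41 in the pellet. The site at the end of the Rheb coding sequence was met in all 6, with heights of 21 to 84, against 22 to 55 in the pellet, and its shared bases ran 12 bases past the last codon shown. The other 5 libraries of fraction 5/6 held 88 to 320 counts of Rictor and 212 to 625 of Mtor, against 589 to 1506 and 1568 to 4528 in the pellet, so that peaks of these genes may not have been detectable there at this depth, and no difference between the fractions was tested.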

How the data were processed

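Per the study's methods, the authors trimmed reads with Cutadapt 2.10, removed rRNA and other non-coding RNA with Bowtie2 2.3.5, aligned with STAR 2.7.8a to GRCm38, took out duplicates (Picard), and used featureCounts 2.2.0 for counting over genes. The deposited table holds raw counts of 16614 genes in 36 libraries, and the deposited peak lists hold intervals on transcripts with a listed height of RPF coverage, 0 in some intervals. Whether the stated minimum of peak height over the transcript mean was applied to these lists is not given in the sources used here.

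For this re-analysis, 26 rows of non-protein-coding genes were left out, and so was Cdk8, whose share of counts varied between libraries. Each comparison was fitted over all genes that passed filterByExpr, with TMM scaling and the quasi-likelihood test of edgeR 4.0.16 (limma 3.58.1, R 4.3.3) on the groups compared, and p-values were adjusted by Benjamini-Hochberg over all genes tested. A gene was called at an adjusted p under 0.05. Errors of fitted differences are standard errors and intervals are at 95%. Alternatives were DESeq2 1.42.0, library sizes alone, every gene with at least 1 count, Cdk8 kept, the standard RNA-seq libraries as reference for the low-nuclease pellet, all 6 groups of a preparation in 1 fit, the replicate number as a block and each library left out. The pattern of Mtor and the pathway lists without the library labelled WT fraction 5/6 replicate 3 were added after seeing the data. Code was tested on simulated data.

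All 8 genes were named in each comparison. Of each pathway list, genes were named from the up to 3 called ones with the largest change, and the 5 genes most like Mtor by Pearson's r were named, and a few items are not reported here. The members and the lists were chosen with earlier results of these data known. Deviations of same-numbered libraries from their group means correlated above 0.1 in all 3 pairs only for WT enrichment in the low-nuclease preparation (r = 0.19, 0.12 and 0.21), which the data and not the labels gave. Nothing in the labels ties a replicate number to a separate batch of animals, so p-values measure the spread between these libraries. The methods name barcodes for demultiplexing and the removal of duplicates, and whether molecular identifiers entered that removal is not given in the sources used here. Counts of a member ranged from 88 to 4528 in standard RPF libraries.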

Additional observations from a re-analysis of the deposited data

How the results depend on the processing

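Of 96 pairs of a gene and a comparison, 31 were called. Over the alternatives, these 31 gave 375 further values, of which 326 kept direction and call, 42 were no longer called and 7 reversed, and among uncalled pairs 36 values became called in the same direction and 4 with the opposite sign. The cause was not tested beyond the construction of each alternative. Counts below are members called higher unless named as lower.

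With library sizes alone, WT occupancy had 1 higher and 4 lower, FMR1 KO occupancy 0 and 4, FMR1 KO enrichment 2, low-nuclease enrichment 1 lower in WT and 2 lower in FMR1 KO, and low-nuclease occupancy 0 in both genotypes. In WT occupancy the values became −0.62 for Pik3cb, −0.73 for Rheb, −0.15 for Rptor, −0.97 for Tsc1 and −0.071 for Tsc2. In FMR1 KO occupancy they became −0.73, −0.74, −0.23, −0.87 and −0.37. DESeq2 gave 0 lower in WT occupancy, 3 in low-nuclease FMR1 KO occupancy and 1 lower in low-nuclease WT enrichment. All 6 groups in 1 fit gave 0 lower in WT and in FMR1 KO occupancy, 3 in FMR1 KO and 1 in WT low-nuclease occupancy, and 1 lower in low-nuclease WT enrichment. With Cdk8 kept, low-nuclease WT occupancy had 1 and low-nuclease FMR1 KO enrichment 1 lower. With the standard RNA-seq libraries as reference, low-nuclease occupancy had 4 higher and 1 lower in WT, where Rps6kb1 became −0.43, and 3 higher and 1 lower in FMR1 KO.

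The fit with the replicate number as a block, a paired analysis, gave 0 lower in WT occupancy, 1 in low-nuclease WT occupancy and 1 lower in low-nuclease WT enrichment, and changed no other count of members by over 1.5 times. Leaving out each library in turn gave 0 to 5 in WT enrichment, 0 to 1 lower in WT occupancy and in low-nuclease WT enrichment, 2 to 4 in low-nuclease FMR1 KO enrichment, and in low-nuclease occupancy 1 to 4 in WT and 0 to 4 in FMR1 KO. Shared peak sites numbered 0 within 3 nt, 3 within 12 nt, 0 among peaks at or above the median height and 5 by shared bases.

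Over all genes, library sizes alone gave 163 calls against 1527 in FMR1 KO enrichment, 5393 against 3116 in its low-nuclease form, 216 against 4410 and 305 against 8113 in low-nuclease occupancy of FMR1 KO and WT, 8 against 3 in WT enrichment and 12 against 2 in abundance. They split the calls of WT occupancy into 1422 higher and 10952 lower (5034 and 5546 with TMM), and those of FMR1 KO occupancy into 1289 and 10047 (5145 and 5699). In the low-nuclease preparation the split was 1594 and 1957 (2229 and 1338) in WT enrichment, 1155 and 4238 (1451 and 1665) in FMR1 KO enrichment, 263 and 42 (4138 and 3975) in WT occupancy and 201 and 15 (2451 and 1959) in FMR1 KO occupancy. With the block there were 856 calls in FMR1 KO enrichment, 4683 in its low-nuclease form, 2769 in low-nuclease FMR1 KO occupancy and 0 in abundance and WT enrichment, 7 in the occupancy change and 1 in the enrichment change. All 6 groups in 1 fit gave 1003 and 1229 in low-nuclease enrichment of FMR1 KO and WT, 7826 in low-nuclease FMR1 KO occupancy, 7 in RNA-seq, 4 in the occupancy change and 6 in WT enrichment, and the standard RNA-seq reference gave 10014 in low-nuclease FMR1 KO occupancy. DESeq2 called 90 genes in WT enrichment, 96 in abundance, 63 in the occupancy change, 24 in RNA-seq and 41 in the enrichment change. Leaving out each library gave 0 to 1262 in WT enrichment, 547 to 1386 in FMR1 KO enrichment, 986 to 2543 and 336 to 2072 in low-nuclease enrichment of WT and FMR1 KO, 1490 to 5891 in low-nuclease FMR1 KO occupancy, 0 to 8 in abundance, 7 to 27 in the occupancy change and 0 to 4 in the enrichment change. The fewest counts behind a member in a standard RPF library were 88, for Rictor in WT fraction 5/6 replicate 2.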
